A study of Mus musculus with 4 samples.

Results

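The L1Md_T LINE-1 peaks are the Zeb1 peaks that the authors' detailed annotation places on a copy of L1Md_T, a subfamily of mouse LINE-1 retrotransposons. They were picked from the deposited peak list by that annotation alone, which names the repeat at the peak, its class and its family. Of the 17435 peaks in the list, 1203 were L1Md_T peaks, or 6.90%, and they made up 48.4% of the 2483 peaks annotated to any LINE-1. Together they covered 1833650 bp. Zeb1 is a zinc finger transcription factor, and the chromatin it binds was fixed with 1% formaldehyde, sheared to fragments near 200 bp, recovered with 8 μg of antibody and sequenced. The cells were D3, a single long-established line of mouse embryonic stem cells. There were 3 Zeb1 ChIP libraries and 1 input library, the latter made without antibody as the background. All 4 came from cells in GS, a medium in which LIF (20 ng/mL) was combined with the GSK-3 inhibitor CHIR99021 (3 μM) and the MEK inhibitor PD0325901 (1 μM). Of the values listed per peak, 3 were used: the reads of the treatment (ChIP), those of the input and the enrichment of the former over the latter. Each is listed as a mean without values per library, so no spread between the ChIP libraries could be given for any peak. The list does not say which entries each mean was taken over, and for the input there was 1 library. There was no second condition, and the comparisons are between sets of peaks, which are not replicates and were not tested against each other.

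LINE-1 elements move by copying their RNA back into DNA at a new place in the genome. A complete copy has a promoter at its 5′ end, a first open reading frame (ORF1) for a protein that binds the element's RNA, and a longer open reading frame (ORF2) for an endonuclease and reverse transcriptase. In young mouse subfamilies such as L1Md_T the promoter is a row of near-identical units called monomers, and most older copies in the genome have lost their 5′ end. In mouse embryonic stem cells these elements can be held down by DNA methylation and by repressive histone marks. Neither was measured here in cells in GS.

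Pairs of neighbouring monomers are shown first because most of the peaks lay on monomers. They were read in the direction of the element from GRCm38, the assembly also called mm10. Capitals mark matches of the Zeb1 motif, searched on both strands as CNCACCTG, CNTACCTG, TNCACCTG and TNTACCTG, and in these monomers the match is read on the strand opposite to the element. The L1Md_T peak with the highest enrichment, chr17:75424201-75425300, held the first pair, at chr17:75424386-75424597 and chr17:75424598-75424809 on the plus strand, 212 bp each. It lay between genes, 11155 bp upstream of the TSS of Rasgrp3.
Rasgrp3 monomer 1: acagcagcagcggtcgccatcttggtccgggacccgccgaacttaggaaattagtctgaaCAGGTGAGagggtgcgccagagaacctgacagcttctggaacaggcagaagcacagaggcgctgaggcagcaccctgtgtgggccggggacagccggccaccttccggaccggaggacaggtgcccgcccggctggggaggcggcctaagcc
Rasgrp3 monomer 2: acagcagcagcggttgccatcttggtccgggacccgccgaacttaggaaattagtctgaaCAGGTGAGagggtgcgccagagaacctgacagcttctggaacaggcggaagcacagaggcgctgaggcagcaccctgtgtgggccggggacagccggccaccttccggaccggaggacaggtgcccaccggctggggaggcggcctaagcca
A peak in chr. X, chrX:156063551-156065350, which the list assigns to Ptchd1 and places in intron 3 of 6 of another gene, held monomers of 214 bp. It was chosen after its values were seen, as the peak of highest enrichment with that period that held a whole pair. The monomers lay at chrX:156064249-156064462 and chrX:156064463-156064676, also on the plus strand.
Ptchd1 monomer 1: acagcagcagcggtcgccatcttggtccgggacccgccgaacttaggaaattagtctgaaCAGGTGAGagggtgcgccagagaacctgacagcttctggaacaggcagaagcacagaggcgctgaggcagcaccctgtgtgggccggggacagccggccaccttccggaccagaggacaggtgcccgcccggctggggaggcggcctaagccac
Ptchd1 monomer 2: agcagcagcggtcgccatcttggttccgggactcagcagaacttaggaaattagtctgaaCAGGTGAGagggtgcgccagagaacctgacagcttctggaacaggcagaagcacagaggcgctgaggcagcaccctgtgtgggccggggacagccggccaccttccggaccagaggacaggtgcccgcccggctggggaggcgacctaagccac
Each of these 4 monomers held 1 match of the motif and 2 copies of its shorter core, CACCTG. The next 2 peaks by enrichment had the same match near their centres, at chr4:28461657-28461756 (assigned to Epha7) and chr4:104262817-104262916 (in intron 3 of 9 of Dab1), both on the plus strand.
Epha7 centre: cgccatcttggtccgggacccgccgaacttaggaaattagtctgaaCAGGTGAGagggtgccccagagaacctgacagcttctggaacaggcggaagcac
Dab1 centre: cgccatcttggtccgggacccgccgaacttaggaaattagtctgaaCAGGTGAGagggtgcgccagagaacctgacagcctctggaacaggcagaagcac

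The tandem structure was measured in each peak as the best identity between a stretch of 200 bases and the sequence 150 to 250 bp further on. At an identity of at least 60%, 768 of the 1203 L1Md_T peaks had a tandem period, or 63.8% (95% Wilson interval 61.1 to 66.5%). The identities fell into 2 clusters, with 174 peaks between 35 and 40% and 189 between 40 and 45% on one side, and 627 at 90% or more on the other. Among the 768 peaks the period was 212 bp in 304, 214 bp in 274, 204 bp in 62 and 201 bp in 37. A tandem period was found in 24.3% of the 846 peaks on the related subfamilies L1Md_F, F2, F3 and Gf (the L1Md_F group) and in 32.4% of the 324 peaks on L1Md_A. It was found in 3.04% of the 3876 peaks that lay more than 5 kb from a TSS and outside LINE, SINE and LTR elements, called distal peaks here, and in 7.53% of all peaks.

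**Figure D1:**
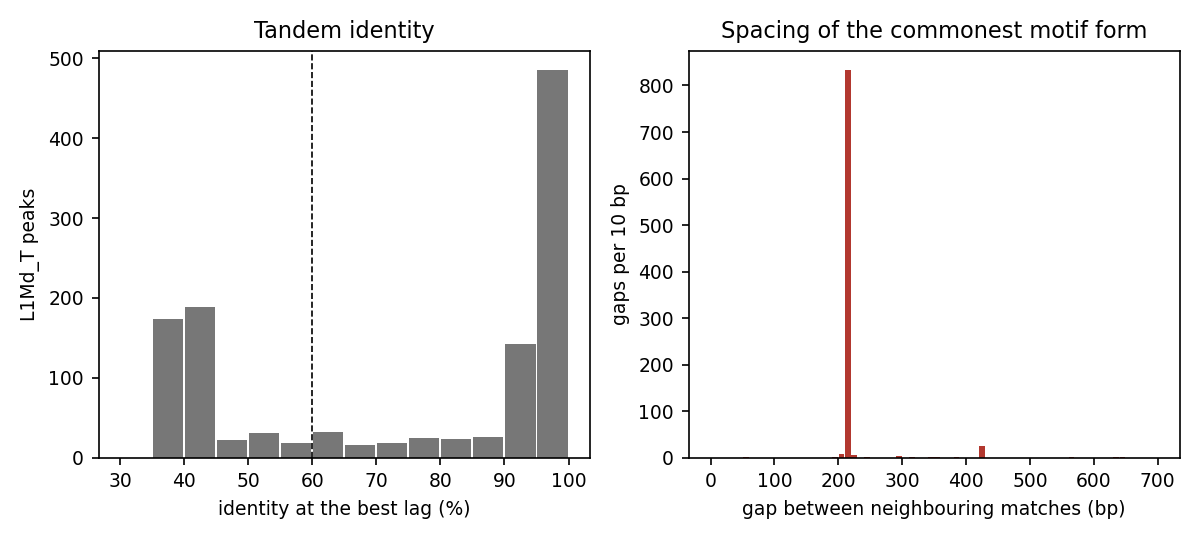
Left, number of L1Md_T peaks by the identity (%) between the sequence and itself at the best lag, with the limit of 60% as a dashed line. Right, gaps in bp between neighbouring CTCACCTG matches on one strand in the 768 peaks with a tandem period: 831 of the 889 gaps lay within 2 bp of the peak's own period.

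Downstream of the monomers, many of the peaks were followed by intact reading frames. Within 10 kb of the peak centre, 372 L1Md_T peaks (30.9%, Wilson interval 28.4 to 33.6%) had a frame of at least 1200 codons, against 5.91% of the L1Md_F group, 13.9% of L1Md_A peaks and 1.11% of distal peaks. In 338 of the 372 this frame, ORF2 by its place and length, had 1281 codons. A frame of at least 300 codons in front of it, in the place of ORF1, was present in 344 peaks, and had 371 codons in 292 of them and 385 in 32. ORF2 began a median of 1805 bp downstream of the peak centre, with quartiles of 1643 and 1974 bp. The nearest frame of at least 300 codons, found for 1137 peaks, began a median of 577 bp downstream of the centre (quartiles 344 and 924 bp). For 66 peaks there was none within 10 kb. By these frames the element lay on the plus strand in 557 peaks and on the minus strand in 580.

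To place each peak on the element, 200 bp at its centre were aligned to the longest L1Md_T peak with both frames and a tandem period, chr1:61497201-61500050, whose element is on the minus strand. In that copy the monomers began 3327 bp and ended 1456 bp before the start of ORF2, and ORF1 began 1156 bp before it. Of the 1203 peaks, 1129 could be aligned, with a median identity of 95.5%. The centres of 737 peaks, or 61.3%, fell on the monomers, 57 between the monomers and ORF1, 42 on ORF1, 197 on ORF2 and 96 after ORF2. The densest 200 bp, which began 2000 bp before ORF2, held 227 centres, and the next denser stretch, which began 2200 bp before it, held 175. Since monomers of one copy are near-identical, a place within the row of monomers is not exact.

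**Figure D2:**
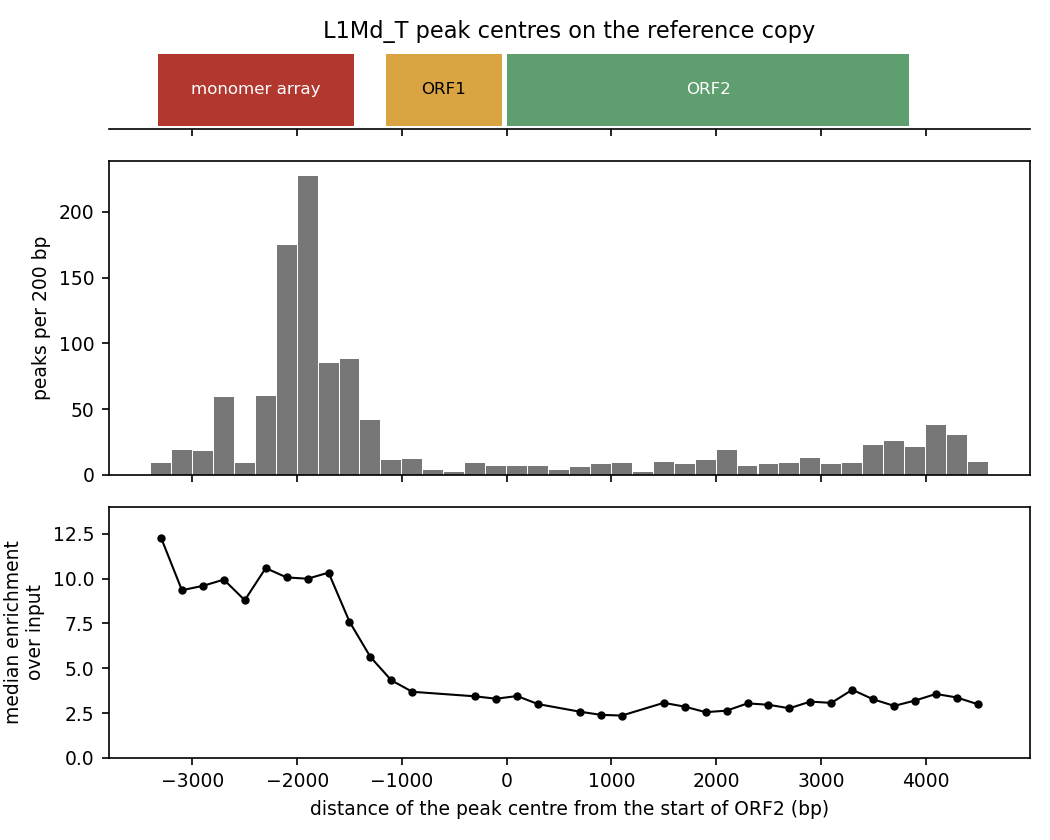
Top, the reference L1Md_T copy with its monomers, ORF1 and ORF2. Middle, number of peak centres in each 200 bp, by distance in bp from the start of ORF2; bottom, median enrichment over input of the same peaks, for stretches with at least 5 peaks. Most centres lie on the monomers, where the median enrichment is near 10, and it is near 3 along ORF2.

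In reads, the median L1Md_T peak had 37 treatment reads (quartiles 29.5 and 49.1, range 20 to 212) and 11 input reads (quartiles 7 and 18, range 0 to 194). It was 1400 bp long, with quartiles of 1300 and 1650 bp. Per kb these were medians of 25.1 treatment reads (95% order-statistic interval 24.7 to 25.7) and 7.14 input reads (6.83 to 7.41). Over all peaks the medians were 25.1 treatment and 8.07 input reads per kb. Distal peaks had 21.6 and 7.14, the L1Md_F group 23.0 and 11.2, and L1Md_A peaks 26.03 and 12.4. These values depend on how length is counted. Over the 50-base words that occur once in the genome, a length chosen after seeing the data, the medians were 79.4 treatment and 19.98 input reads per kb in L1Md_T peaks, against 27.5 and 8.72 over all peaks and 22.3 and 7.35 in distal peaks. The L1Md_F group then had 53.3 and 26.7, and L1Md_A peaks 115 and 45.6. So on that length L1Md_T peaks stood above all peaks in both treatment and input reads. The intervals cover counting over peaks and not the spread between libraries.

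Enrichment over input is the authors' own ratio, described by them as normalized for mapped reads. It is not the quotient of the listed reads, whose median was 3.59, and its scaling in each library could not be checked from the list. The median enrichment of L1Md_T peaks was 7.6 (95% interval 7.3 to 7.9), with quartiles of 4.15 and 12.1. The median was 6.5 over all peaks, 6.2 in distal peaks, 3.75 in the L1Md_F group and 3.85 in L1Md_A peaks. An enrichment of at least 5 was reached by 836 L1Md_T peaks, or 69.5%, against 74.0% of all peaks, and one of at least 10 by 424, or 35.2%, against 14.7% of all peaks. Both ends of the list held many of them. The tenth of all peaks with the highest enrichment contained 351, or 29.2% of the L1Md_T peaks, and the tenth with the lowest contained 263, or 21.9%. Of the 100 peaks with the highest enrichment in the whole list, 46 were L1Md_T peaks, but of the 100 with the most treatment reads, 2 were. Low input went with this, since 132 L1Md_T peaks (10.97%) had under 5 mean input reads, against 1.74% of all peaks. Across the 1203 peaks, Spearman's correlation was -0.84 between enrichment and input reads and 0.18 between enrichment and treatment reads. Input is the denominator of enrichment, and the copies share sequence, so these values only describe the list.

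The peaks with a tandem period differed in enrichment from those without. The 768 peaks with a period had a median enrichment of 9.95 (95% interval 9.32 to 10.35), with 37.8 treatment and 8.8 input reads. The 435 without a period had 3.45 (3.3 to 3.74), with 34.5 treatment and 19 input reads. So the treatment reads of the median peak were close and the input reads were not. The authors kept only peaks with at least 20 treatment reads and an enrichment of at least 2, so lower values were left out beforehand. How far that shapes the difference was not tested. An enrichment of at least 5 was reached by 704 peaks with a period, or 91.7%, and by 132 without, or 30.3%. By place on the element, the median enrichment was 9.95 on the monomers, 5.54 between the monomers and ORF1, 3.59 on ORF1, 2.87 on ORF2 and 3.38 after ORF2. The median input reads rose in that order from 8.43 on the monomers to 16.8, 22.8 and 27 on ORF2, with 23 after ORF2. The 74 peaks that could not be aligned had a median enrichment of 11.8 and 6.54 input reads, and 62.2% of them had a tandem period.

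**Figure D3:**
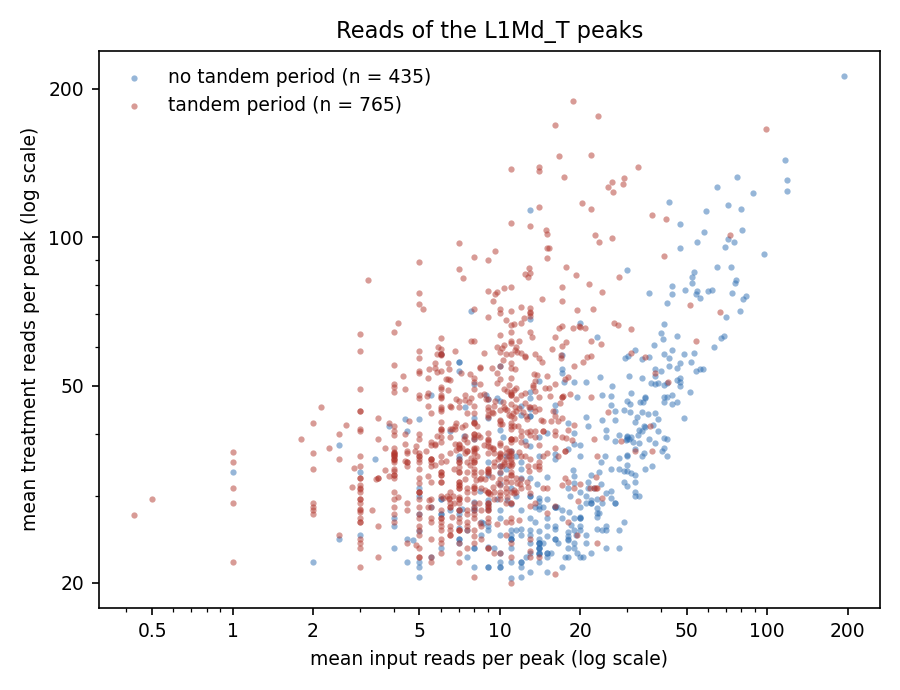
Mean treatment reads against mean input reads of each L1Md_T peak, both on log scales, for peaks with a tandem period (red) and without (blue). The 3 peaks with 0 input reads are left out; they all have a period. The points overlap in treatment reads, while many peaks without a period lie at 20 or more input reads.

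The same split in the other subfamilies gave similar medians. In the L1Md_F group the median enrichment was 9.18 in 206 peaks with a tandem period and 3.24 in 640 without, and in L1Md_A it was 9.2 in 105 peaks with a period and 3.2 in 219 without. The medians of input reads were 9.61 and 19.3 in the L1Md_F group and 12 and 23 in L1Md_A. L1Md_T differed from both in the share of peaks that had a period, more than in the enrichment of either kind. The motif was found in 95.1% of L1Md_F group peaks with a period and 58.3% of those without. In L1Md_A, whose commonest period was 208 bp, the shares were 61.0% and 58.4%.

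**Figure D4:**
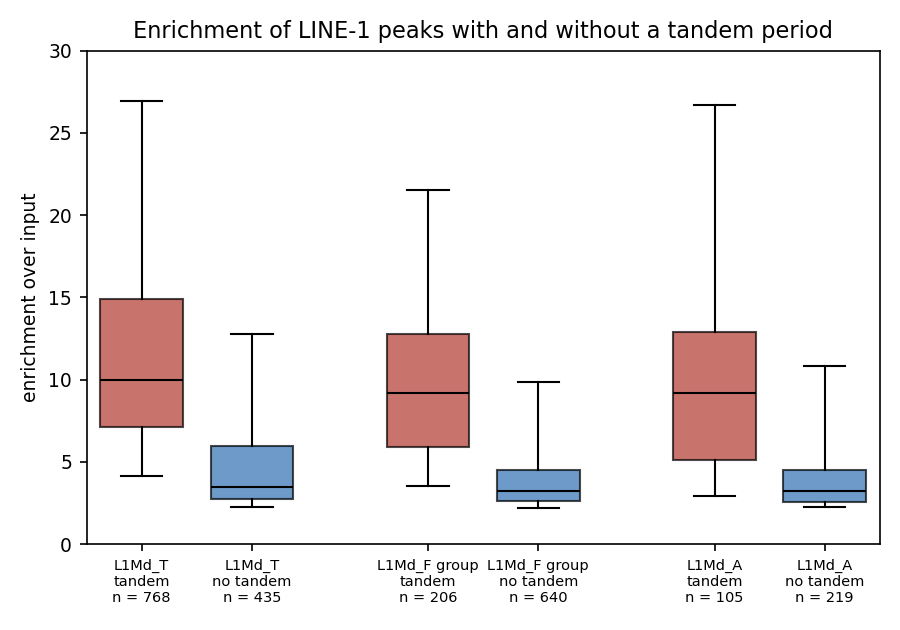
Enrichment over input of peaks with a tandem period (red) and without (blue) in L1Md_T, the L1Md_F group and L1Md_A. Boxes span the quartiles, the line is the median and whiskers reach the 5th and 95th percentiles; in each of the 3 sets the box with a period lies higher.

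The authors kept reads that aligned to 1 place, so the share of sequence that is unique in the genome bears on what could be counted. In the median L1Md_T peak, 33.5% of all 50-base words occurred once in GRCm38 and 51.1% of all 100-base words did, while in the median distal peak 100% did for either length. No word of 50 bases was unique in 17 L1Md_T peaks, and the Rasgrp3 peak was among them; 4.595% of its 100-base words were unique. The share of unique 50-base words was 35.6% in the median peak with a tandem period, 22.9% without, and 10.1% in peaks centred on ORF2. Where at least 50% of the words were unique, the median enrichment was 7.65 in 86 peaks with a period (95% interval 7.34 to 9.36) and 6.36 in 87 without (5.45 to 7.45). The medians of input reads in these peaks were 10 and 11. Between 25 and 50%, which held 619 of the peaks, it was 9.34 in 498 with a period and 4.4 in 121 without, with 9 and 15 input reads. Where under 25% were, it was 12.8 in 184 peaks with a period and 3 in 227 without, with 8 and 26 input reads. GC content moved with enrichment too, with a median of 51.2% in peaks with a period and 42.2% in those without and a Spearman correlation of 0.72 across the 1203 peaks. The part of unique sequence, of GC content and of low input reads in the difference was not tested.

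The Zeb1 motif occurred at least once in 981 L1Md_T peaks, or 81.5% (Wilson interval 79.3 to 83.6%). It occurred in 76.8% of all peaks, 80.3% of distal peaks, 67.3% of the L1Md_F group and 59.3% of L1Md_A peaks. Of 1890616 genome windows of 1400 bp, the median length of an L1Md_T peak, 55.7% held it, against 80.4% of the 1400 bp around L1Md_T peak centres. In the 200 bp at the centre it was found in 409 L1Md_T peaks, or 34.0%, and in 16.6% of all peaks. There it was found in 17.2% of distal peaks, 17.8% of the L1Md_F group and 9.26% of L1Md_A peaks. Matches were also denser along L1Md_T peaks, so the 34.0% does not show that they gather at the centre. The core CACCTG, which ends CNCACCTG and TNCACCTG, was found in 84.2% of L1Md_T peaks, 82.1% of all peaks and 86.2% of distal peaks. It was found in 83.6% of the 1400 bp around L1Md_T peak centres and 56.5% of the windows. With a tandem period 94.8% of the peaks had the motif and without one 58.2% did. The peaks held 2766 matches, or 1.51 per kb, with 1.89 per kb in those with a period and 0.711 without, against 0.889 over all peaks. The form CTCACCTG made up 1663 of the matches, or 60.1%, followed by CACACCTG with 415 and TCTACCTG with 307.

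The CTCACCTG matches largely followed the monomers. The next 2 forms occurred about once per peak, CACACCTG 415 times in 403 peaks and TCTACCTG 307 times in 297. Of 1645 CTCACCTG matches in peaks with a known element strand, 1542, or 93.7%, lay on the strand opposite to the element. In peaks with a tandem period there were 889 gaps between neighbouring CTCACCTG matches on one strand, and they came from 356 peaks. Of the 889 gaps, 831, or 93.5%, were within 2 bp of the peak's own period. The commonest gap, 212 bp, occurred 744 times. The sequence around the match was shared to a large degree. With 10 bases on either side, the 4 commonest surroundings of a match were the following, with the match in capitals and each read on its own strand.
Context 1: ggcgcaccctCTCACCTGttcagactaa
Context 2: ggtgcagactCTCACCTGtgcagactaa
Context 3: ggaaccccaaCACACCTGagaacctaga
Context 4: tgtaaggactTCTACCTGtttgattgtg
Copies of them lie at chr8:99466327-99466354 (minus strand), chr8:75339158-75339185, chr8:99467766-99467793 and chr9:23283111-23283138 (plus strand). Context 1 accounted for 1093 of the matches and occurred in 371 L1Md_T peaks. It occurred 5730 times in the whole genome, and 1265 of these copies, or 22.1%, lay in a peak of any kind. Of the 1681 copies of context 2, 20.4% lay in a peak, of the 1956 of context 3, 10.8%, and of the 3956 of context 4, 5.41%. The median enrichment of the L1Md_T peaks with contexts 1 and 3 was 10.75 and 11.6, and with contexts 2 and 4 it was 7.83 and 7.75.

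The number of matches went with enrichment over all L1Md_T peaks and only weakly among those with a tandem period. The median enrichment was 3.24 in 222 peaks with 0 matches, 6.7 with 1, 8.3 with 2 to 3 and 10.8 in 291 peaks with 4 or more. Within the peaks with a tandem period it was 13.85 in the 40 with 0 matches (95% interval 8.75 to 19.15), 9.47 with 1, 8.7 with 2 to 3 and 11.1 with 4 or more. Spearman's correlation between enrichment and the number of matches was 0.47 over all 1203 peaks, 0.12 with a period and 0.47 without. Peaks with both frames beside them had a median enrichment of 10.9, against 6.51 in peaks without ORF2, and among those with a period the 2 medians were 11.7 and 8.65.

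To see how many intact copies had a peak, the genome was searched for frames of at least 1200 codons with the sequence of LINE-1. There were 3424, and 3147 of them had 1281 codons. By the words of 20 bases in front of the frame, 2003 were most like L1Md_T, 1107 most like L1Md_A and 60 most like the L1Md_F group. A Zeb1 peak lay within 6 kb in front of 358 of the 2003 L1Md_T-like copies, or 17.9% (Wilson interval 16.3 to 19.6%), and in 317 of them it was an L1Md_T peak. Of the 60 copies like the L1Md_F group, 11 had a peak, or 18.3% (10.6 to 29.9%), and in 4 of the 11 it was a peak of that group. Of the L1Md_A-like copies, 52 had one, or 4.697% (3.6 to 6.11%). The words came from the peaks' own sequences, so a copy with a peak was more easily assigned, and 33 of the 254 copies assigned to none had a peak. In the 3 kb in front of the frame, the median share of unique 50-base words was 43.4% in L1Md_T-like copies with a peak and 46.4% without, and 41.5 and 48.8% in L1Md_A-like copies. The share with a peak fell as unique sequence rose, from 23.0% of the 152 L1Md_T-like copies with under 10% unique words to 15.4% of the 723 with at least 50%. A peak lay at 19.0% of the L1Md_T-like copies with a tandem period and 10.4% of those without. All copies were counted in the reference assembly. Whether each is present in the genome of the D3 cells was not checked, so these shares are not rates of binding.

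By chromosome, the L1Md_T-like copies with a peak ranged from 9.57% to 23.1%. The lowest share was on chr. X, where 20 of 209 copies had one (Wilson interval 6.28 to 14.3%), against 336 of 1776 on the autosomes, or 18.9% (17.2 to 20.8%). With at least 25% unique words the shares were 8.33% of 168 copies on chr. X and 17.9% of 1514 on the autosomes. The copy number of chr. X in these cells was not measured here. Although few peaks of any kind lay on chr. X, 68 of its 275, or 24.7%, were L1Md_T peaks, with a median enrichment of 9.62 and 7.5 input reads against 7.525 and 11 on the autosomes. The highest counts of L1Md_T peaks were on chr. 1 (112), 6 (103) and 3 (93), and per 100 Mb there were 68.8 on chr. 6 and 24.6 on chr. 11. Chr. 11 held 30 of them among its 1398 peaks.

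**Figure D5:**
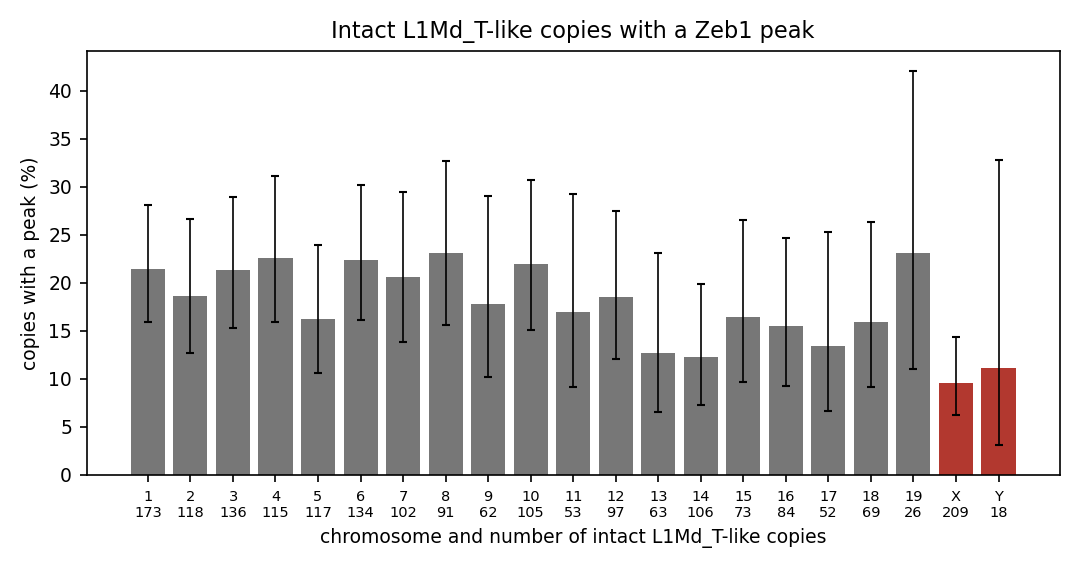
Share (%) of intact L1Md_T-like copies with a Zeb1 peak within 6 kb in front of ORF2, by chromosome, with 95% Wilson intervals; the number of copies stands under each chromosome. Chr. X (20 of 209) has the lowest share, and the interval of chr. Y spans most of the range.

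Most of the L1Md_T peaks lay outside genes and far from the TSS that the list assigns. By the list, 918 were intergenic and 270 in introns, and 12, or 0.998% (Wilson interval 0.572 to 1.74%), lay within 5 kb of a TSS, against 61.4% of all peaks. With the TSS of the reference annotation in place of the list's, 2.08% did. The detailed annotation gives each peak a single label, so a peak labelled by a promoter or an exon was not counted here. That can lower the shares near a TSS and inside a gene, and by how much was not tested. The median distance to the TSS of the list was 125 kb, against 726 bp over all peaks, 93.9 kb in the L1Md_F group and 136 kb in L1Md_A. The centre was inside a gene of the reference annotation in 319 peaks, or 26.5% (24.1 to 29.1%), against 77.0% of all peaks, 26.5% of the L1Md_F group and 21.6% of L1Md_A peaks. Where the strand of the element and of a single host strand were known, 186 of 294 elements, or 63.3% (57.6 to 68.6%), lay antisense to the gene. This share is not given for the other subfamilies or for copies without a peak, so it is not shown to be particular to these peaks. The interval treats elements in the same gene as separate, and 13 of the 15 in the locus Igk lay antisense. The median enrichment was 8.38 antisense and 9.08 sense, 8.21 inside genes and 7.49 outside. The peaks rarely stood close together, and 94, or 7.81%, had another L1Md_T peak within 10 kb.

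Of the 5 L1Md_T peaks with the highest enrichment, all had 1 mean input read. The Rasgrp3 peak had an enrichment of 81.85, the highest in the whole list, from 35 treatment reads, which placed it at rank 13166 by those reads. Rasgrp3 codes for an exchange factor that activates Ras. The peak assigned to Epha7, an ephrin receptor, had 79.3 from 36.7 treatment reads and lay 351456 bp upstream of the TSS. The peak in Dab1, an adaptor of reelin signalling, had 78.7 from 33.5 reads. The next were assigned to D830032E09Rik, with 62.1 from 31 reads, and to F630206G17Rik, with 57.3 from 29. All but the Dab1 peak passed the 60% limit for a tandem period; in Dab1 the best identity was 51%. The 3 peaks with 0 input reads, assigned to Impg1, Gm3376 and Lpin1 and chosen after their values were seen, had enrichments of 28.5, 23 and 20.5, equal to their treatment reads.

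Peaks with many treatment reads differed in their input. The peak assigned to Cdh8, a cadherin, had 188 treatment and 18.8 input reads (enrichment 22.3), and the one in intron 3 of 14 of Bmper, a regulator of BMP signalling, had 176 and 23.3 (16.4). A peak 8431 bp downstream of the TSS of the olfactory receptor gene Olfr197 had 169 and 16 (24), and one assigned to the ribonuclease gene Ear2 had 165 and 99 (3.82). The Cdh8, Bmper and Olfr197 peaks were centred on monomers with a 212 bp period, had ORF2 beside them and held 5, 5 and 7 matches of the motif.

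The 5 peaks nearest to a TSS lay between 1310 and 2803 bp from it. They were at Gm14625, with an enrichment of 9.8, at Igfbp7, a secreted binding protein of insulin-like growth factors (18.2), at the vomeronasal receptor gene Vmn1r23 (3.15), at Gm12718 (6.65) and at the taste receptor gene Tas2r144 (11.9). The Igfbp7 peak lay 1855 bp upstream of the TSS, with 28 treatment and 3 input reads, on monomers of 212 bp. The 3 longest peaks, of 3600, 3400 and 3300 bp, were assigned to Mir5130, Gm14405 and Impad1, were centred on ORF1 and had enrichments of 4.23, 5.18 and 5.88.

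The L1Md_T peaks were spread over 928 assigned genes, of which 738 had 1 peak and 60 had at least 3. The genes with the most were Rprl1 with 10, over 1414 kb of chr. 6, and Agbl4, Cox7c, G6pd2 and Mir6350 with 5 each. The 10 peaks of Rprl1 had enrichments between 3.45 and 22.6. Of the genes with 4 peaks, Cntnap5a, which codes for a neuronal adhesion protein, had the highest median enrichment among those that the naming rule took, 18.6, and all 4 of its peaks had a tandem period. By position, 15 peaks lay within the immunoglobulin kappa locus Igk, 13 of them antisense to it, and 5 within Agbl4, a carboxypeptidase gene. Galntl6, Gm16630, Macrod2 and Naaladl2 held 3 each. The 3 in Galntl6 had enrichments of 16.04 to 21.45, and 1 of the 3 had a tandem period. Median enrichments were low in Agbl4, at 3.57, and in the 4 peaks assigned to Fam181b, at 3.45. In each of these 2 genes 1 peak had a tandem period.

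Genes known to silence or restrict LINE-1 were looked up in the list for peaks at their own promoters. Of 25 such genes, 19 had a Zeb1 peak within 5 kb of the TSS, against 41.3% of all protein-coding genes. The 25 were not matched to other genes by expression or promoter sequence. These shares therefore do not tell whether LINE-1 control genes stand apart. Among genes of the methylation of DNA, Dnmt3b had an enrichment of 11.9 with 48.4 treatment and 9.14 input reads, Dnmt1 had 9.63, Uhrf1 8.31 and Dnmt3a 7.06, and Dnmt3l had no peak within that distance. Among histone modifiers and their partners, the demethylase Kdm1a had 9.58, the methyltransferase Ehmt2 8.09 and its partner Ehmt1 3.66. The corepressors Trim28 and Sin3a had 6.42 and 7.87, and the deacetylases Hdac1 and Hdac2 had 5.45 and 5.58. Of the HUSH complex, which silences LINE-1, Mphosph8 had 7.47, Tasor 6.74 and Pphln1 3.56. Among the others with a peak, Yy1 had 9.02, Atf7ip 7.63, Tet2 6.54, Mov10 5.6 and Samhd1 5.07. Setdb1, Tet1, Morc2a and Trex1 had no peak assigned. The median of the best promoter peak was 7.06 over the 19 genes and 6.84 over all genes with one, so their enrichment was near that of other promoters. An L1Md_T peak was assigned to 2 of the 25 genes, Tet2 at 97.8 kb, with an enrichment of 8.24, and Hdac2 at 160 kb, with 4.95.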

How the data were processed

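The peak list of 3 Zeb1 ChIP libraries and 1 input library was used as deposited. The authors trimmed the reads, drew the same number from each library, aligned them to GRCm38 with STAR 2.4.2a keeping unique alignments, removed duplicates with Picard 1.136, called broad peaks with PeakRanger and annotated them with HOMER 4.7. The treatment and input signal of each unified peak is the number of reads that the authors recounted, scaled to a common depth and averaged. The entries that each average was taken over are not known from the list. The deposited enrichment is the ratio of treatment to input that the authors normalized for mapped reads and averaged. The deposited p-value, averaged by the authors, is 0 for every peak and was not used. The lowest treatment signal in the list is 20 reads and the lowest enrichment is 2.

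Members were taken by the annotation of L1Md_T. The members and lists were chosen with earlier results of these data known. No test was made, since peaks are not replicates and the list holds no values per library, so the depth of each library is not known from it. Shares carry 95% Wilson intervals and medians order-statistic intervals, which cover counting error only.

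Sequences were read from GRCm38 with pysam 0.24.0. A tandem period was the lag of 150 to 250 bp with the best identity over 200 bases, at 60% or more. Frames ran from ATG to a stop codon, within 10 kb of the centre. Words of 50 and 100 bases were counted over the whole genome on both strands. Peak centres (200 bp) were aligned with BLAST+ 2.17.0 at an E-value of at most 1e-05. Intact copies were assigned by 20-base words, at least 100 of them shared, to pools of words made from the sequences of L1Md_T, L1Md_F group and L1Md_A peaks, and were counted as having a peak when a peak centre lay up to 6 kb in front of ORF2 or up to 500 bp inside it. Their unique words were counted over 3 kb. The scans were tested on simulated sequences. Python 3.11.15, NumPy 2.4.6, pandas 2.3.3, SciPy 1.17.1, numba 0.67.0 and matplotlib 3.10.9 were used.

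Named peaks are the 5 with the highest enrichment, the 5 with the most treatment reads, the 5 nearest to a TSS and the 3 longest, and named genes are up to 10 assigned genes and up to 10 host genes with at least 3 L1Md_T peaks, those with the most first. The 25 LINE-1 control genes include Trim28, Setdb1, Atf7ip, Ehmt1, Ehmt2, Kdm1a, Hdac1, Hdac2, Sin3a, Dnmt1, Dnmt3a, Dnmt3b, Dnmt3l, Uhrf1, Tet1, Tet2, Tasor, Mphosph8, Pphln1, Morc2a, Mov10, Samhd1, Trex1 and Yy1. A further control gene and a further peak of the naming rule are not reported here.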

Additional observations from a re-analysis of the deposited data

How the results depend on the processing

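Of 31 alternatives over 12 results, 9 left the value within its interval, or a count within 1.5 times, and 22 moved it. Of the 31, 8 were chosen after seeing the data. The number of peaks (836 to 1203), the antisense share and the share beside a long frame within 8 kb were among the 9.

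The median enrichment of 7.6 became 3.59 as the quotient of listed reads (peaks with at least 1 input read), 8.74 with at least 40 treatment reads and, chosen after seeing the data, 6.94 with at least 5 input reads. Over unique 50-base words alone, also chosen later, treatment and input reads per kb were 79.4 and 19.98. The share near a TSS was 2.08% with the TSS of the reference annotation, 0% within 1 kb and 3.91% within 10 kb. The annotation rule leaves out peaks labelled by a promoter or an exon, which can lower these shares. The share inside a gene was 19.7% for protein-coding genes and 22.4% by the list's introns. The share with the motif was 56.1% on the forward strand, 69.8% in the central 1000 bp, 34.0% in the central 200 bp and 84.2% for the core, and, chosen later, 94.8% with and 58.2% without a tandem period. The tandem share was 68.0% at an identity of 50% and 59.9% at 70%. The share beside a long frame was 35.7% from 1000 codons, and the distance to the first frame 646.5 bp with both frames. Copies with a peak were 15.8% for L1Md_T peaks and 15.4% with at least 50% unique words, both chosen later. Narrower windows and stricter limits hold fewer matches by construction; otherwise the cause was not tested.

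Leaving out each ChIP library was not possible, since the list holds no values per library. No paired analysis was possible because the 3 ChIP libraries share 1 input. The deposited means carry no spread, and with a median of 11 input reads a few reads change an enrichment greatly.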
